A study of Mus musculus with 4 samples.

Results

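The Wnt genes described here are the 45 genes, of 32286 in the deposited matrices, that encode Wnt ligands (19 genes), Frizzled receptors (10), the co-receptors Lrp5 and Lrp6, the R-spondins (4), the secreted Frizzled-related proteins (4), the Dickkopf proteins (4), Wif1 and the feedback target Axin2. Members were selected by a pattern of gene symbols. Their UMIs (unique molecular identifiers, 1 for each captured transcript molecule) were counted in single cells from the lungs of 4 mice, taken 14 days after intratracheal bleomycin at 0.8 U/kg, which injures the lung and is followed by fibrosis. The mice were 8 to 11 weeks old when used, 2 WT littermates and 2 Tubb3-/- mice, the latter homozygous for a Cre cassette placed in frame at the start codon of Tubb3, which encodes β-III tubulin. The allele is germline and acts in every cell of the animal, all 4 mice received bleomycin, and no uninjured lung was analysed here. Each lung gave a whole-cell sample depleted of TER-119+ red cells, and a mural cell-enriched sample depleted of CD31, CD45, EpCAM and TER-119. Samples were tagged by mouse, and those of all 4 mice were then pooled by type. Live cells were sorted from the whole-cell pool. From the enriched pool, MCAM+ PDGFRα- cells and MCAM- cells were sorted and mixed in equal number. A library below is the part of a pool that carries the tag of 1 mouse, so the mice of a pool were sorted and processed together. The question put to the data was where in the injured lung each Wnt gene was expressed and whether its level differed with loss of Tubb3.

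The 8 libraries held 41462258 to 95036340 gene UMIs, with a median of 9436 to 16495 per cell. Cells were assigned to a lineage by at least 1 UMI of Ptprc (immune, 4389 cells), Cdh5 (endothelial, 2282), Epcam (epithelial, 321), Msln (mesothelial, 324), Higd1b or Myh11 (mural, 4541) or Pdgfra (fibroblast, 3792), and cells carrying UMIs of several lineages were dropped. Among 8818 cells with at least 3 Pdgfra UMIs, 47.1% also carried Myh11 and 18.4% carried Msln. Fibroblast levels below are thus those of the fibroblasts without such UMIs. Of 38 further lineage markers, 37 were highest in their own lineage, the exception being Dcn, which was highest in mesothelial cells. The mural cells were mostly Myh11+: 4038 had Myh11 and no Higd1b UMI (Myh11 mural cells below), 503 had Higd1b, and 42 of these had no Myh11. Myh11 marks smooth muscle, and Higd1b marks pericytes. The gate does not separate smooth muscle of vessels from that of airways, so mural is the name of the gate here. Lgr6, found in airway smooth muscle, stood at 155 and 127 CPM in the Myh11 mural cells of WT mice. In those of Tubb3-/- mice it stood at 132 and 148 CPM (CPM is defined next). Levels are in CPM, the summed UMIs of a gene over a mouse's cells of a lineage per 1000000 gene UMIs of those cells. In mural cells Tubb3 stood at 10.9 and 8.85 CPM in WT replicates 1 and 2 and at 0.782 and 1.39 CPM in Tubb3-/- replicates 1 and 2. In fibroblasts it stood at 4.08 and 1.17 against 0.330 and 0.264 CPM. By Xist and Y-linked transcripts, replicate 1 of each genotype was male and replicate 2 female. No barcode was shared between libraries of one pool, and 59 were shared between the whole-cell and enriched pools. A 3′ UMI is counted once per transcript whatever its length, so CPM values of different genes can be set side by side, within differences of capture.

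Wnt ligands are secreted, lipid-modified proteins that bind a Frizzled receptor together with Lrp5 or Lrp6, after which β-catenin is spared from degradation and drives targets such as Axin2, itself a brake on the pathway. Ligands such as Wnt5a also act through Frizzled and Ror receptors without β-catenin. Secreted Frizzled-related proteins and Wif1 bind the ligand, Dkk1 and Dkk2 bind the co-receptors, and R-spondins raise the number of Frizzled receptors on the cell through Lgr receptors. In the lung, Wnt signals from mesenchymal cells maintain alveolar epithelial progenitors, and the pathway is active in fibrotic tissue.

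Promoters of 29 of the 45 genes, 32 in all, were in the RefSeq promoter table (GRCm38.p6), each 300 bases long, 250 before and 50 after the transcription start. The forms CTTTGAT and CTTTGTT of the TCF/LEF motif, which has other forms as well, were searched on both strands. A match was held by 5 of the genes (Dkk1, Fzd7, Wnt3, Wnt5b and Wnt11), and by 9.33% of all 32851 promoters. The median GC content was 69.5% over the 32 promoters (48.3 to 86.3%) and 52.7% over all promoters. The sequences below are those of Axin2, the textbook target of the pathway, Wif1, which differed by genotype in Myh11 mural cells, and Wnt11, which holds a match near its start. They lie at chr11:108920099-108920398, chr10:121033754-121034053 and chr7:98834862-98835161, each on the + strand. Capitals mark the match, which reads CTTTGAT on the opposite strand and lies 51 bases before the start of Wnt11.
Axin2: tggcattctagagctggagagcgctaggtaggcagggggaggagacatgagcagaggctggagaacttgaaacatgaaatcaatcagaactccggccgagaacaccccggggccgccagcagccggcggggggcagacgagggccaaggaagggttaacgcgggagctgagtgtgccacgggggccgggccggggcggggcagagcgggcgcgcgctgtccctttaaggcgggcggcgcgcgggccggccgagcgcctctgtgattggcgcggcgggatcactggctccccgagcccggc
Wif1: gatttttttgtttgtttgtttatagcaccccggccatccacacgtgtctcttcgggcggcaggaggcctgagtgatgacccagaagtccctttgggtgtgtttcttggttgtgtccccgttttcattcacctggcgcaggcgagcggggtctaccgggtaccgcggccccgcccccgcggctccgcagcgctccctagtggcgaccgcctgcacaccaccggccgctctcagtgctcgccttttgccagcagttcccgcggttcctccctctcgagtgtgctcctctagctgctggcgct
Wnt11: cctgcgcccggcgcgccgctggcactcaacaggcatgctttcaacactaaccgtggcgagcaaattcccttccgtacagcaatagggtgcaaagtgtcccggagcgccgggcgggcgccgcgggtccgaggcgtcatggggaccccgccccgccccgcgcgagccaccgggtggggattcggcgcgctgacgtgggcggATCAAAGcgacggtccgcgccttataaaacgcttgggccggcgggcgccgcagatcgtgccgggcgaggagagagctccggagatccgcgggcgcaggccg
A second Wnt11 promoter, chr7:98838595-98838894, held neither form. No match says only that these letters are absent from the window.

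Every one of the 45 genes had at least 1 UMI in the 6 lineages. In all, 26 reached a mean over the 4 mice of 10 CPM in some lineage, and the other 19 reached at most 7.82 CPM. Mesothelial cells had the most genes at or above 10 CPM (19), followed by fibroblasts (18), mural cells (16), epithelial cells (12), endothelial cells (7) and immune cells (3). Of the 26, 9 were highest in fibroblasts, 6 in mesothelial cells, 4 in mural cells, 4 in epithelial cells and 3 in endothelial cells, and 15 stood apart from the next lineage in every mouse. A gene without a UMI in a lineage is limited to 0.0438 CPM in fibroblasts, 0.0579 in mural, 0.0649 in immune, 0.155 in endothelial, 0.528 in epithelial and 0.637 in mesothelial cells, the level of 3 UMIs over all mice. These limits cover counting error only. In GENCODE vM21 (mm10), exons of 8 of the 26 overlap a gene on the other strand (Axin2, Fzd5, Fzd6, Rspo3, Sfrp2, Wnt5a, Wnt7b and Wnt11) and none overlaps one on its own strand.

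**Figure D1:**
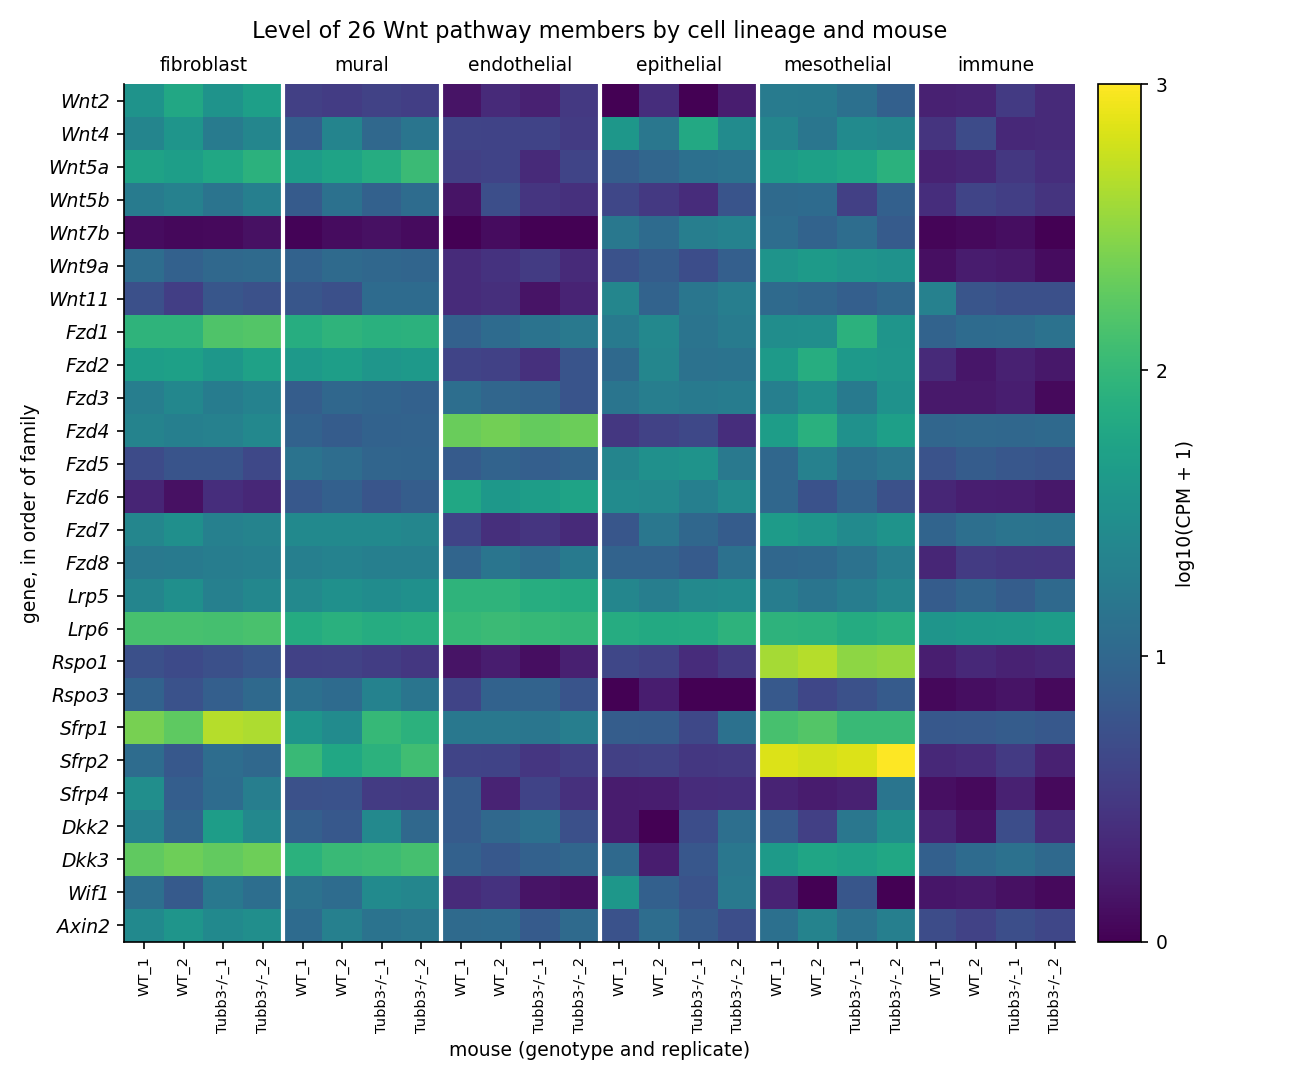
Level of the 26 Wnt genes that reached 10 CPM in each lineage (blocks) and each mouse (columns), as color on a log10(CPM + 1) scale. Sfrp2 and Rspo1 peak in mesothelial cells (means 751 and 373 CPM), Sfrp1, Dkk3 and Fzd1 in fibroblasts (326, 203 and 121 CPM), and Fzd4 and Lrp5 in endothelial cells (209 and 79.1 CPM).

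Wnt ligands were transcripts of mesenchymal, mesothelial and epithelial cells. Their summed level was 168 ± 25.0 CPM in fibroblasts, 162 ± 6.45 in mesothelial cells, 116 ± 34.4 in mural cells and 109 ± 27.2 in epithelial cells (mean ± SD, n = 4 mice), against 15.1 ± 3.03 in endothelial and 18.3 ± 6.90 in immune cells. Wnt2, a ligand of lung mesenchyme needed for lung formation, stood at 34.1, 61.6, 33.3 and 48.0 CPM in fibroblasts (WT replicates 1 and 2, then Tubb3-/- replicates 1 and 2, the order used throughout) and at 2.71, 2.44, 2.95 and 2.63 CPM in mural cells. Each mouse was thus higher in fibroblasts. Wnt5a, the prototype of the β-catenin-independent ligands, was at 69.7 ± 29.0 CPM in mural cells and 60.7 CPM in fibroblasts, and the ranges overlapped. Wnt9a was a mesothelial ligand at 34.8, 42.6, 35.8 and 32.4 CPM, with fibroblasts next at 9.44 CPM, and no mouse overlapped. Wnt4 was highest in epithelial cells at 35.6 ± 20.7 CPM with fibroblasts at 24.5 CPM, a difference within the spread of the mice. Wnt5b was highest in fibroblasts (17.1 ± 2.79 CPM). Wnt7b, an epithelial ligand in lung development, stood at 15.8 ± 4.33 CPM and Wnt11 at 15.7 ± 6.36 CPM in epithelial cells.

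The epithelial value joined cells whose ligands differed in part. The 97 epithelial cells with Ager, a marker of alveolar type 1 cells, as their single set marker had Wnt7b at 27.4, Wnt4 at 25.0, Wnt3a at 24.5 and Wnt7a at 24.5 CPM. Wnt4 varied between mice there, at 11.6, 0, 57.1 and 31.2 CPM. Wnt3a and Wnt7a did not reach 10 CPM over all epithelial cells and were chosen here after their values were seen. The 32 cells with Foxj1, the ciliated cell factor, had Wnt4 at 179, Wnt11 at 97.9, Wif1 at 89.6 and Fzd6 at 85.2 CPM, and Wif1 had no UMI in the Ager cells. These sets are small, with as few as 3 Foxj1 cells in 1 mouse, and 0 epithelial cells carried Lamp3, the marker taken for alveolar type 2 cells, alone of the set markers, so that type is not described. Among mural cells, the 503 with Higd1b had Wnt4 at 38.5, 120, 63.0 and 93.4 CPM and the Myh11 mural cells at 4.64, 5.10, 3.40 and 4.09 CPM, so the sets were apart in every mouse. Wnt5b followed the same split, with a mean of 55.9 CPM in the Higd1b set and 3.35 CPM in the Myh11 set. No test was made of these sets, whose sums come from the same animals.

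**Figure D2:**
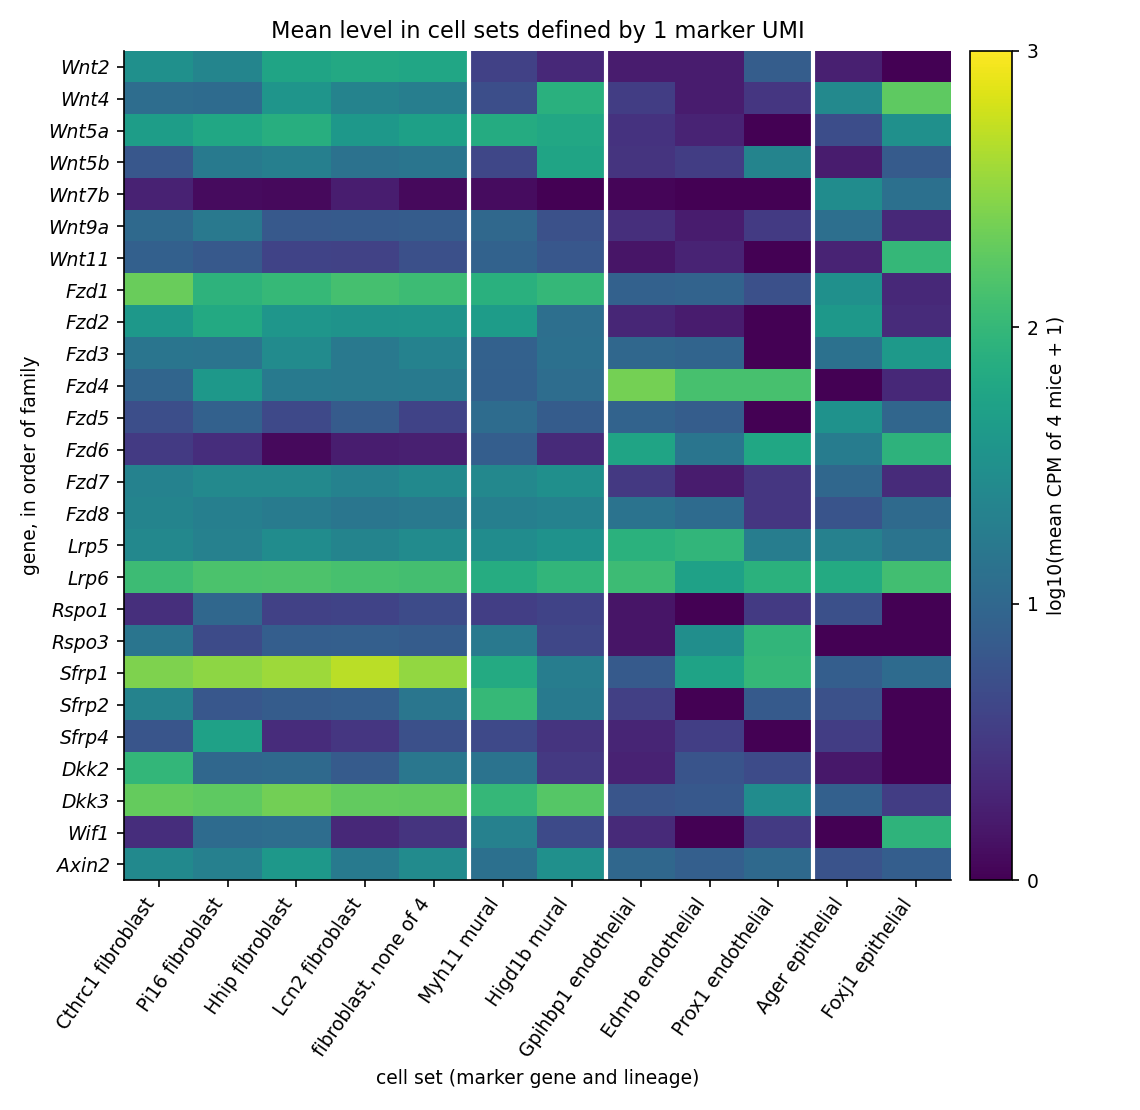
Mean level over 4 mice of the 26 Wnt genes (vertical axis) in sets of cells within a lineage that carry a UMI of 1 marker gene (horizontal axis), as color on a log10(mean CPM + 1) scale. Wnt4 is at 179 CPM in Foxj1 epithelial cells and 78.8 CPM in Higd1b mural cells, and Dkk2 is at 97.0 CPM in fibroblasts with Cthrc1 alone.

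Frizzled receptors and co-receptors were expressed in each lineage except at a low level in immune cells, where the Frizzleds summed to 40.4 ± 4.33 CPM. Fzd4 (mm10, chr7:89404355-89413134, + strand), the receptor of norrin as well as of Wnts in endothelium, was the endothelial receptor, at 207, 230, 192 and 209 CPM. The next lineage, mesothelial cells, had 51.2 CPM, and no mouse overlapped. Within endothelium, Fzd4 was at 233 CPM in 1579 cells with Gpihbp1, a marker of general capillaries, and at 135 CPM in 139 cells with Ednrb, a marker of aerocytes. Fzd6 was also highest in endothelial cells (49.6 ± 9.11 CPM), as was Lrp5 (79.1 ± 10.2 CPM). Fzd1 led in fibroblasts (121 ± 36.9 CPM) over mural cells (81.3 CPM). Fzd2 did not separate mesothelial cells from fibroblasts (48.1 and 46.7 CPM). Fzd7 was at 34.5 CPM in mesothelial cells, Fzd3 at 24.3 CPM there, Fzd5 at 25.7 CPM in epithelial cells and Fzd8 at 19.0 CPM in mural cells. Lrp6 was the broadest, from 132 CPM in fibroblasts (128 to 136 over mice) and 102 CPM in endothelial cells to 35.4, 38.3, 40.0 and 44.0 CPM in immune cells.

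The secreted regulators held the highest levels of the set, those of Sfrp2, Rspo1 and Sfrp1. Sfrp2 (mm10, chr3:83766321-83774316, + strand), which binds Wnt ligands, stood at 701, 627, 692 and 986 CPM in mesothelial cells, the highest value of the 45 genes, against 92.6 CPM in mural cells and 8.13 CPM in WT fibroblasts. Sfrp1 stood at 239, 181, 463 and 422 CPM in fibroblasts and 125 CPM in mesothelial cells. A UMI of Sfrp1 was found in 73.9% of fibroblasts and 4.81% of immune cells, whose median depth per mouse was 14670 to 19221 and 6651 to 7108 UMIs. Whether the immune share is carry-over from other cells was not tested, and at its lower depth it sets no floor for deeper cells. Sfrp4 was a fibroblast transcript at 29.0, 6.96, 10.5 and 18.2 CPM. Dkk3, a divergent Dickkopf family member, had 203 ± 18.4 CPM in fibroblasts and 107 CPM in mural cells, whose values did not overlap. Dkk2, an antagonist at the co-receptors, had 20.6, 8.35, 45.2 and 24.4 CPM in fibroblasts. Wif1 was at 18.1 ± 7.76 CPM in mural and 16.3 CPM in epithelial cells. Rspo1 (chr4:124986430-125009099, + strand), an agonist that acts through Lgr receptors, was concentrated in mesothelial cells, at 391, 457, 311 and 332 CPM with fibroblasts next at 4.48 CPM, and no mouse overlapped. Rspo3, needed for vascular development, was highest in mural cells (14.1 ± 4.58 CPM), but within endothelium the Ednrb cells had 29.1 CPM and the Gpihbp1 cells 0.460 CPM. Axin2 was highest in fibroblasts at 25.4, 36.1, 25.2 and 29.1 CPM, with 16.1 CPM in mesothelial cells, 14.2 in mural cells and 9.08 in endothelial cells.

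Within fibroblasts, sets were made of cells with a UMI of Cthrc1 (318 cells), Pi16 (271), Hhip (1070) or Lcn2 (113) alone among these 4 genes, or of none (725). Of these cells, 37, 122, 34 and 6 in this order lacked a UMI of Npnt, listed as an alveolar fibroblast marker, and 686 of the 725 had one, so the sets are called by their gene and not by a cell type. Dkk2 was highest in the Cthrc1 set, at 98.9, 32.4, 185 and 71.7 CPM, against means of 6.34 to 14.5 CPM in the other sets. Fzd1 had its highest mean there too, 207 CPM against 86.9 to 128. Sfrp4 was at 50.6 CPM and Fzd4 at 38.5 CPM in the Pi16 set, above their means in the other sets (1.38 to 5.17 and 8.48 to 16.0 CPM). Wnt4 was highest in the Hhip set (36.0 CPM), and Sfrp1 in the Lcn2 set (490 ± 232 CPM).

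Fibroblasts and mural cells of the same 4 mice were compared next. Of the 30 Wnt genes that passed the filter on low counts, 24 differed (edgeR's quasi-likelihood test with mouse as a block, Benjamini-Hochberg adjusted p under 0.05), 18 higher and 6 lower in fibroblasts. Over all 14544 genes tested 58.1% differed, 28.9% higher and 29.2% lower, and the median log2 fold change was 0.88 over the 30 genes and -0.00 over all. The highest ratios were those of Wnt2 (log2 fold change 3.98 ± 0.16 SE, adjusted p = 7.2e-07) and Rspo2 (3.97 ± 0.42, 0.00012), though Rspo2 had only 3.17 CPM in fibroblasts and 10 UMIs in mural cells. Rspo4 (3.60 ± 0.64) likewise rested on 6 mural UMIs. Sfrp1 was higher in fibroblasts by 2.53 ± 0.11 (adjusted p = 9.7e-07), Sfrp4 by 2.29 ± 0.33, Fzd4 by 1.52 ± 0.08, Wnt10a by 1.55 ± 0.38, Fzd3 by 1.36 ± 0.10, Dkk2 by 1.16 ± 0.15 and Axin2 by 1.09 ± 0.08. Wnt10a was not called with a gate of 2 UMIs or with either Tubb3-/- mouse left out. Smaller differences in this direction were those of Wnt4, Wnt5b, Wnt6, Dkk3, Lrp6, Rspo1, Fzd1 and Fzd2, from 1.02 ± 0.23 for Wnt6 to 0.23 ± 0.07 for Fzd2, whose call was lost in 6 of 13 alternatives. On the mural side, Sfrp2 led (log2 fold change -3.29 ± 0.12, adjusted p = 4.1e-07), then Fzd6 (-2.52 ± 0.31), Fzd5 (-1.15 ± 0.17), Rspo3 (-0.90 ± 0.19), Wnt11 (-0.75 ± 0.16) and Wif1 (-0.66 ± 0.14). Wnt5a (-0.11 ± 0.09), Fzd7, Fzd8, Lrp5 and Wnt9a did not pass, nor did 1 gene below 10 CPM. Within the whole-cell libraries alone 24 of the genes had enough counts to be tested and 16 were called, against 4338 of all 11685. There Fzd2, Rspo1, Rspo2, Rspo3, Rspo4, Wif1, Wnt6, Wnt10a and Wnt11 were not called, tested or not, and Wnt5a was.

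**Figure D3:**
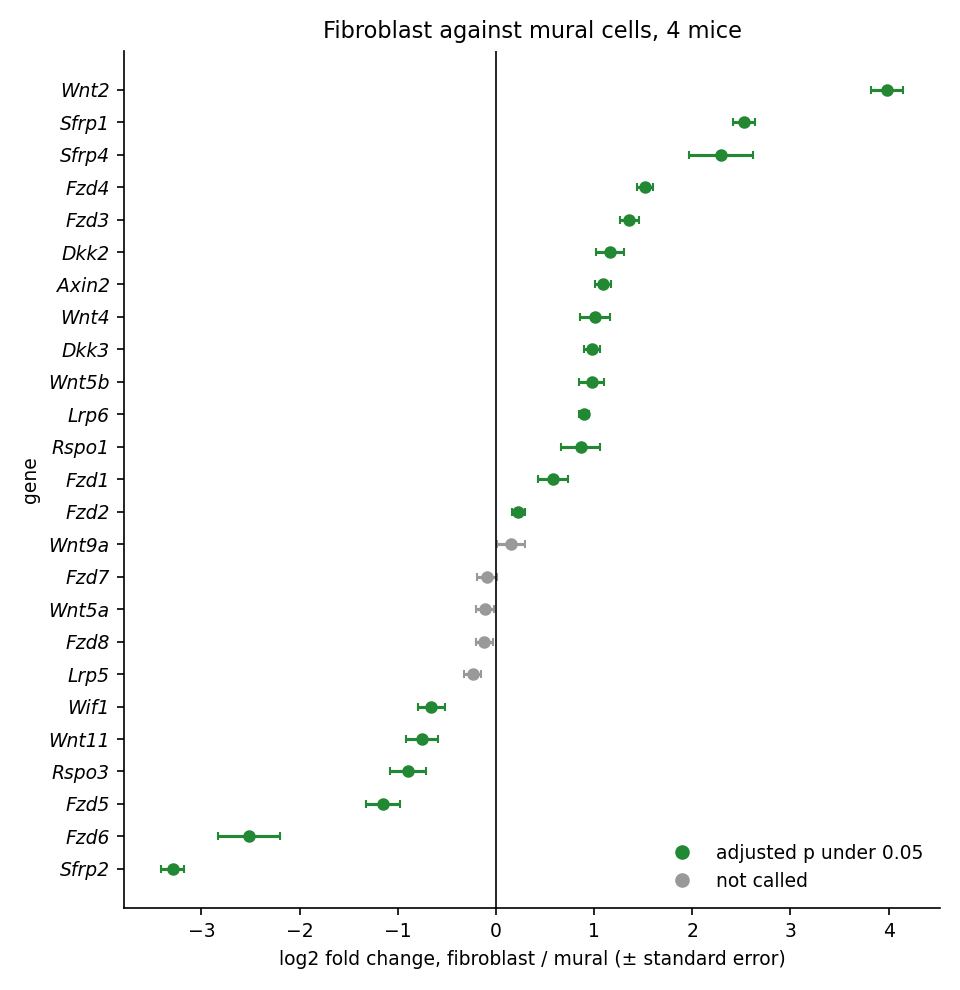
Log2 fold change, fibroblast over mural cells, with standard error, for the Wnt genes that reached 10 CPM in some lineage and passed the filter, 4 mice. Green points had an adjusted p under 0.05 with edgeR and gray points did not, and values run from Wnt2 at 3.98 to Sfrp2 at -3.29.

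Other genes of the pathway were read in the same comparison. Of 50 tested, 33 differed, 20 higher and 13 lower in fibroblasts, near the 58.1% of all genes. Higher were Gpc3, a glypican that binds Wnts and hedgehog (3.25 ± 0.06), the receptor-like kinase Ptk7 (2.50 ± 0.09), the Wnt-inactivating deacylase Notum (2.10 ± 0.15) and the Wnt5a receptor Ror2 (1.51 ± 0.08). Lower were Sost, a Lrp5 and Lrp6 antagonist (-5.75 ± 0.14), Lgr6, an R-spondin receptor found in airway smooth muscle (-4.60 ± 0.11), and the feedback gene Nkd1 (-1.31 ± 0.12). Lef1, a nuclear partner of β-catenin, was lower too (-1.90 ± 0.55, adjusted p = 0.020).

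With loss of Tubb3, the Wnt genes past the test in the main fits, without sex or replicate as a term, were Sfrp1 and Wif1. Both calls were in Myh11 mural cells and both were higher. Sfrp1 (mm10, chr8:23411502-23449632, + strand) stood at 36.8 and 28.7 CPM in WT and at 112 and 92.5 CPM in Tubb3-/- mice. Both Tubb3-/- values lay above both WT values, and the log2 fold change was 1.61 ± 0.17 (adjusted p = 0.028, edgeR's quasi-likelihood test). Wif1 (chr10:121033960-121100650, + strand) stood at 13.1 and 12.2 CPM against 28.4 and 25.5 CPM, again apart, with a log2 fold change of 1.07 ± 0.14 (adjusted p = 0.033). These were 2 of 27 genes tested, while 0.853% of all 14182 genes were called. At an unadjusted p under 0.05 there were 10 of 27, against 14.0% of all genes, and the median log2 fold change was 0.08 over the 27 and 0.01 over all. Wnt5a rested just outside the threshold, at 44.2 and 46.1 against 75.1 and 115 CPM (1.05 ± 0.17, adjusted p = 0.051), as did Wnt11 at 5.11 and 4.50 against 10.5 and 10.9 CPM (1.12 ± 0.19, adjusted p = 0.055). Dkk3 (0.47 ± 0.09), Dkk2 (1.39 ± 0.43), Rspo3 (0.69 ± 0.24), Fzd5 (-0.54 ± 0.18) and Sfrp4 (-1.02 ± 0.26) had adjusted p of 0.076 to 0.27. The direction of Sfrp4 reversed under an alternative, the dominant gate, which keeps cells with UMIs of several gates. Of the other pathway genes, 1 of 50 rose, the Wnt5a receptor Ror2 (0.85 ± 0.09, adjusted p = 0.021), and the R-spondin receptor Lgr5 had 0.96 ± 0.18 (adjusted p = 0.073). With the replicate number as a term, which coincides with sex, 7 of the 27 Wnt genes were called, as were 664 of all 14182 genes. The 7 were Dkk2, Dkk3, Rspo3, Sfrp1, Wif1, Wnt11 and Wnt5a, all higher in Tubb3-/- mice.

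Fibroblast transcripts in the same Myh11 mural cells differed along with Sfrp1. A list of 6 fibroblast markers summed to 2897 and 2609 CPM in WT and 5073 and 4536 CPM in Tubb3-/- mice. Of the 6 genes, 5 were higher in both Tubb3-/- mice, and Tcf21 was lower in both. Col1a1 stood at 915 and 873 against 1813 and 1666 CPM and Cthrc1 at 42.3 and 49.4 against 145 and 114 CPM. Npnt was lower in both Tubb3-/- mice (338 and 317 against 282 and 314 CPM), Hhip was higher in both, and Lgr6 overlapped. The 8 mural markers summed to 14610 and 13653 against 13454 and 12101 CPM. Most of that sum was Acta2, at 12955 and 12159 against 11720 and 10636 CPM. Acta2 was lower in both Tubb3-/- mice, Pdgfrb and Ndufa4l2 were higher in both, and the other mural markers overlapped. The part of these genes in the Sfrp1 and Wif1 differences was not tested. In the 503 Higd1b mural cells Sfrp1 was at 25.7, 15.1, 14.7 and 16.1 CPM, with overlap, and Wif1 at 5.35, 0, 7.34 and 2.02 CPM. With edgeR, 0 of 15 Wnt genes tested in these 503 cells were called, and 0 of all 9855 genes. At an unadjusted p under 0.05 there were 0 of the 15 and 518 of all genes. In pericytes, defined by Higd1b without Myh11, 2 Wnt genes could be tested and 0 were called with edgeR (0% of all genes). Neither had an unadjusted p under 0.05, as 61 of all 1556 genes did, and DESeq2 called 0 of the 2 and 2 of 1556. A gene without a UMI in those 42 cells is limited to 11.1 CPM. In whole-cell libraries alone, where 75 to 119 Myh11 mural cells came from each mouse, neither call held (Sfrp1 2.65, adjusted p = 0.091, and Wif1 0.97, adjusted p = 0.85). Wif1 also missed the threshold when the top 5% of cells by UMIs were left out (adjusted p = 0.085) and under the dominant gate, which keeps cells with UMIs of several gates (0.70, adjusted p = 0.052).

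Over all mural cells, 0 of 28 Wnt genes were called with edgeR, against 0% of all genes, 9 had an unadjusted p under 0.05 (11.1% of all genes), and DESeq2 called 3 (Sfrp1, Wif1 and Wnt5a), and 160 of all 14478 genes. Sfrp1 was at 36.0 and 26.7 against 103 and 84.2 CPM, a log2 fold change of 1.55 ± 0.21 (adjusted p = 0.15), and Wif1 at 12.6 and 10.4 against 26.3 and 23.0 CPM (1.08 ± 0.17, adjusted p = 0.17). With the replicate number as a term, edgeR called 5 of the 28, all higher, and 533 of all 14478 genes. The 5 were Dkk2, Sfrp1, Wif1, Wnt11 and Wnt5a. Leaving out single mice, which leaves an arm of 1, gave 6 calls without WT replicate 1 (502 of all 15122 genes), 3 without WT replicate 2 (403 of 14967), 2 without Tubb3-/- replicate 1 (19 of 15130) and 3 without Tubb3-/- replicate 2 (74 of 15103).

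**Figure D4:**
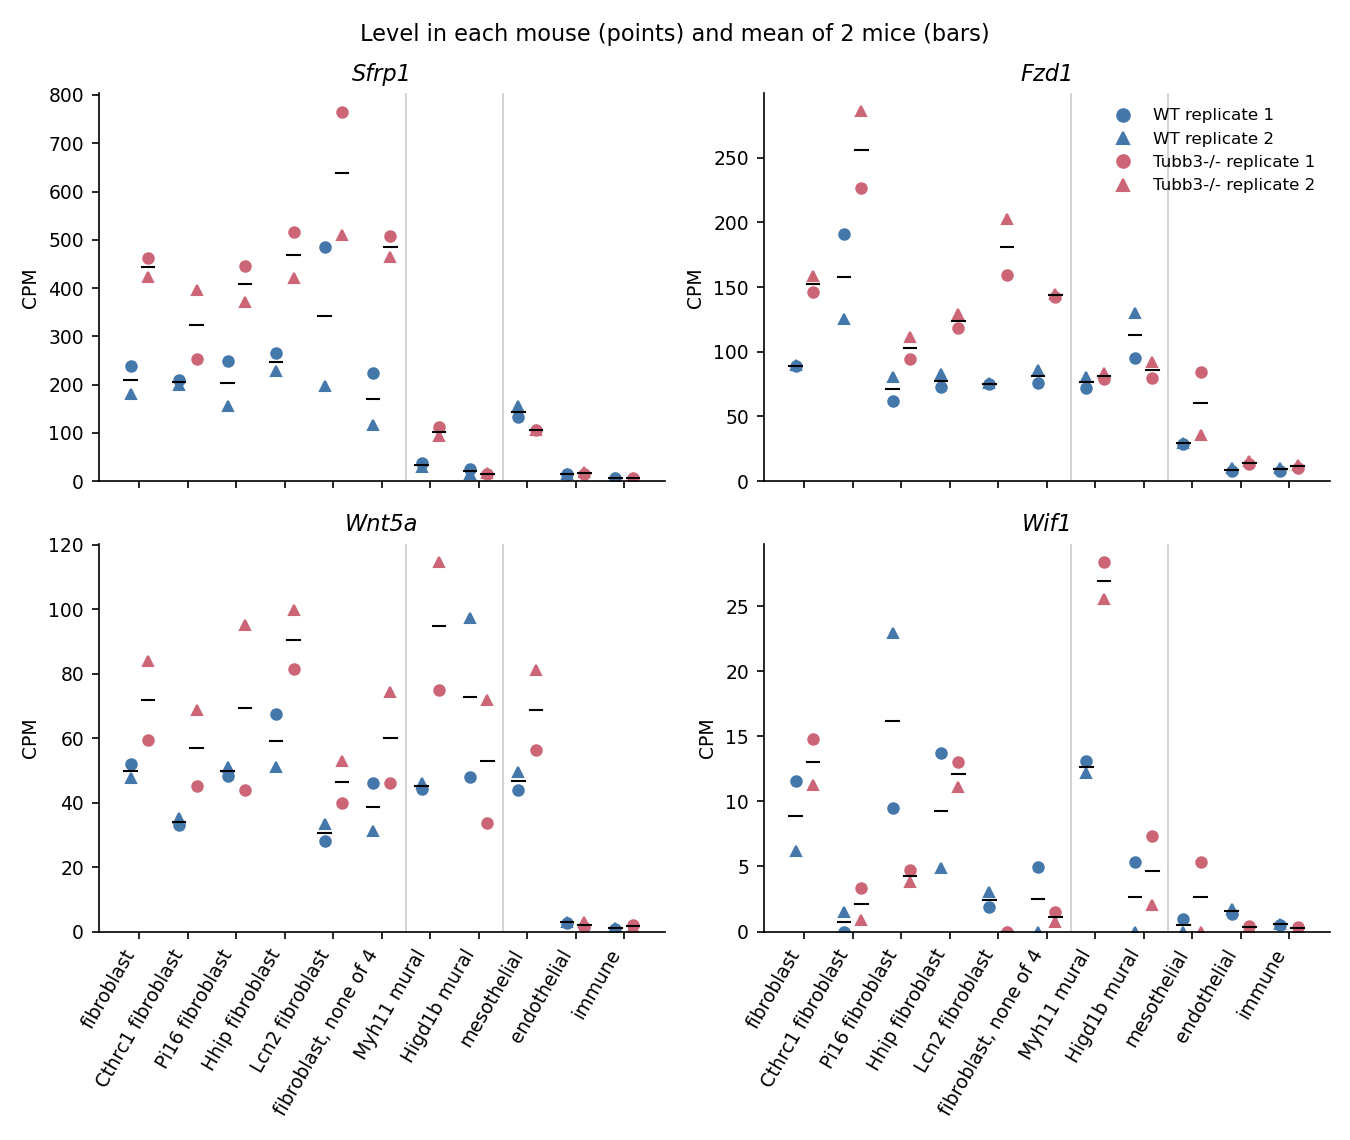
CPM of Sfrp1, Fzd1, Wnt5a and Wif1 (a panel each, linear axis from 0) in fibroblasts and their sets, both mural sets and the mesothelial, endothelial and immune lineages, with a point for each mouse and a bar for the mean of 2 mice. Sfrp1 in fibroblasts is at 239 and 181 CPM in WT and at 463 and 422 CPM in Tubb3-/- mice, and at 132 and 156 against 106 and 106 CPM in mesothelial cells.

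In fibroblasts, no Wnt gene passed the threshold in the fit without sex or replicate as a term. With the replicate number as a term, which here coincides with sex, 6 did (Sfrp1, Fzd1, Dkk2, Wnt10a and Wnt6 higher in Tubb3-/- mice and Wnt4 lower), as did 1565 of all 14783 genes. Of the 18 at or above 10 CPM, 6 did not overlap between the genotypes, Sfrp1 and Fzd1 among them, as against 51.7% of all 8689 genes at that level. With edgeR 0 of 30 were called (0% of 14783 genes), 8 had an unadjusted p under 0.05 (18.1% of all genes), and DESeq2 called 2, Fzd1 and Sfrp1, and 513 of all 14783 genes. Sfrp1, at 239 and 181 against 463 and 422 CPM, had a log2 fold change of 1.06 ± 0.18 (adjusted p = 0.098). The study names Sfrp1 with Saa3 and Lcn2 among genes of inflammatory fibroblasts from such libraries, so its direction here is not independent evidence. Saa3 stood at 116 and 48.4 against 309 and 288 CPM and Lcn2 at 14.3 and 22.3 against 40.8 and 41.3 CPM. Fzd1 (chr5:4753839-4758035, - strand) was at 88.8 and 89.5 against 146 and 159 CPM (0.77 ± 0.09, adjusted p = 0.077). Wnt10a (2.03 ± 0.56), Wnt6 (1.26 ± 0.42), Dkk2 (1.24 ± 0.49), Wnt5a (0.52 ± 0.17), Wnt4 (-0.57 ± 0.23) and Fzd7 (-0.38 ± 0.13) had adjusted p of 0.17 to 0.27. Wnt2 (34.1 and 61.6 against 33.3 and 48.0 CPM) and Axin2 (25.4 and 36.1 against 25.2 and 29.1 CPM) overlapped between genotypes. Without WT replicate 1, 7 genes were called (Dkk2, Fzd1, Sfrp1, Wif1, Wnt10a, Wnt4 and Wnt6), against 1077 of all 15535 genes, and without WT replicate 2 Fzd1 and Sfrp1 were, against 560 of 15638. Without Tubb3-/- replicate 1 or replicate 2, 0 were called, and 0 of all genes. Each of these fits leaves 1 mouse in an arm, which is assumed to vary like the other genotype.

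The make-up of the fibroblasts differed by mouse as well. Cthrc1 stood at 69.8 and 51.3 CPM over the fibroblasts of WT mice and at 206 and 99.7 CPM in Tubb3-/- mice. The 8 mural markers summed to 422 and 401 against 743 and 572 CPM in these cells, and the 6 fibroblast markers to 11191 and 7328 against 12545 and 11720 CPM. The median depth of a fibroblast was 16345 and 14670 against 19221 and 18336 UMIs. Sfrp1 did not overlap between the genotypes in any of the 5 fibroblast sets, from 210 and 200 against 253 and 395 CPM in the Cthrc1 set to 224 and 116 against 507 and 464 CPM in the cells with none of the 4 genes. Fzd1 was apart in all 5 as well, for example at 61.7 and 80.3 against 94.3 and 111 CPM in the Pi16 set. These were 2 of 18 Wnt genes, and 3.28% of all 8689 genes were apart in the same direction in the 5 sets, which come from the same 4 mice. In the 2833 fibroblasts with no Cthrc1 UMI, 0 of 28 genes were called with edgeR (0.00709% of all genes) and 5 had an unadjusted p under 0.05, as 2245 of all 14095 did, DESeq2 called 2 (Fzd1 and Sfrp1) and 317 of all genes, and the log2 fold changes were 1.10 ± 0.21 for Sfrp1 (adjusted p = 0.12), 0.66 ± 0.09 for Fzd1 (adjusted p = 0.072) and 0.53 ± 0.29 for Dkk2 (adjusted p = 0.42). With the replicate number as a term, edgeR called Fzd1 and Sfrp1 in these Cthrc1-negative cells, and 652 of all 14095 genes. The part of the Cthrc1, mural and fibroblast markers and of depth in the values over all fibroblasts was not tested further.

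**Figure D5:**
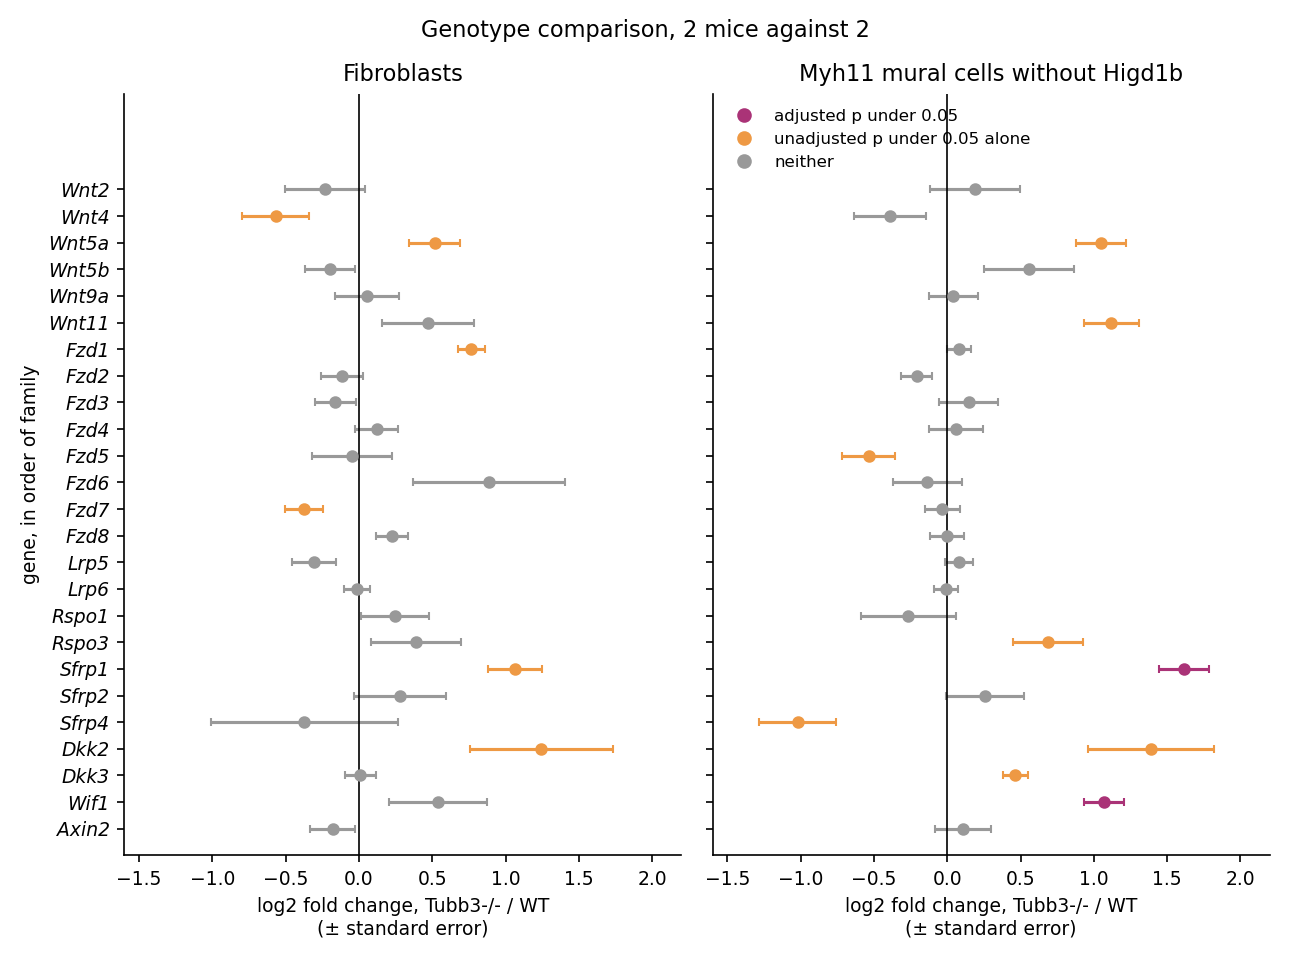
Log2 fold change, Tubb3-/- over WT, with standard error, of Wnt genes tested with edgeR in fibroblasts (left) and Myh11 mural cells (right), 2 mice against 2, colored by the adjusted and the unadjusted p. Sfrp1 (1.61) and Wif1 (1.07) in Myh11 mural cells passed the threshold.

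The effect of genotype was also compared between the lineages. As an interaction over fibroblast and mural sums, 0 of 30 Wnt genes were called with edgeR (0.00650% of all genes), 7 had an unadjusted p under 0.05 (8.90% of all genes), and DESeq2 called 1, Fzd1, and 69 of all 15394 genes. The difference, fibroblast minus mural, was 0.76 ± 0.11 for Fzd1 (adjusted p = 0.17), whose mural levels were 73.8 and 87.7 against 79.3 and 84.2 CPM, and -0.48 ± 0.10 for Sfrp1 (adjusted p = 0.28). Without WT replicate 1, Fzd1, Sfrp1 and Sfrp4 were called, and 890 of all 16001 genes.

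In the other lineages no Wnt gene was called in the main edgeR fits, which had no term for sex or replicate. In endothelial cells 0 of 18 were (0% of all genes), with 2 at an unadjusted p under 0.05 (13.6% of all genes) and 0 by DESeq2, which called 127 of all 12737. Lrp5 was at 87.9 and 87.7 against 72.2 and 68.5 CPM (-0.31 ± 0.10, adjusted p = 0.26). Fzd1, the other at an unadjusted p under 0.05, had 0.66 ± 0.24 (adjusted p = 0.30, edgeR). In epithelial cells 0 of 17 were called (0% of all genes), 0 reached an unadjusted p under 0.05 (4.26% of all genes) and DESeq2 called 0, and 3 of all 10422. In mesothelial cells 0 of 22 were called (0.356% of all genes) and 6 had an unadjusted p under 0.05 (8.58% of all genes), while DESeq2 called 0, and 37 of all 9540. Dkk2 stood at 5.97 and 2.71 against 14.3 and 28.8 CPM (2.36 ± 0.55, adjusted p = 0.14), Fzd1 had 1.04 ± 0.37 (adjusted p = 0.40), and Sfrp1 was at 132 and 156 against 106 and 106 CPM (-0.45 ± 0.19, adjusted p = 0.53). Rspo1 had -0.41 ± 0.17 (adjusted p = 0.51). With the replicate number as a term, edgeR called Dkk2 and Fzd1 in mesothelial cells, both higher, and 292 of all 9540 genes. In the same cells the 6 fibroblast markers summed to 3693 and 4421 against 6497 and 5309 CPM, the 8 mural markers to 319 and 306 against 518 and 423 CPM and the 6 mesothelial markers to 5914 and 6378 against 4211 and 4571 CPM, each without overlap, and their part in these values was not tested. In immune cells 0 of 19 were called (0% of all genes) and 2 had an unadjusted p under 0.05 (8.37% of all genes), with 0 by DESeq2, which called 66 of all 14085. The 2 were Dkk2 (1.99 ± 0.73) and Wnt4 (-1.12 ± 0.44), each with an adjusted p of 0.59 (edgeR). Wnt11 in immune cells rested on a single mouse, at 19.9, 5.21, 4.40 and 4.45 CPM. Of the other pathway genes, none was called by genotype in these lineages.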

How the data were processed

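Single-cell RNA counts of 4 lungs were analysed, 2 WT and 2 Tubb3-/-, each as a whole-cell and a mural cell-enriched library. These libraries were separated by tag from 2 pools that each held cells of all 4 mice. The deposited counts, per the labels, are UMIs per gene and cell made by the authors with Cell Ranger 7.1.0 on mm10, with 1 matrix for each CellPlex tag. The tag list in the labels' extract protocol gave each library its mouse, libraries given the same name in both pools were taken as the same mouse, and that tag held 88.1 to 94.7% of tag UMIs in each of the 8 libraries. Wnt genes and gene lists were chosen with earlier results of these data known. Cells with 200 to 7500 genes and at most 15% mitochondrial UMIs were kept (30860 of 32121, more than the study's methods give for its merged object). Of these, 14442 (46.8%) carried UMIs of several lineage gates and were dropped, 769 carried none, and 15649 were used. No doublet caller was run.

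UMIs were summed per mouse and lineage over both libraries, since cells are not replicates. Sums were tested across all genes with edgeR 4.0.16 (quasi-likelihood F test, filterByExpr, TMM, Benjamini-Hochberg, threshold 0.05) in R 4.3.3, without a covariate by genotype and with mouse as a block between lineages. DESeq2 1.42.0, other scaling, filters, gates, cell limits, single pools, a replicate block and each mouse left out were alternatives. The mice are separate animals, but 2 against 2 limit precision, and an exact permutation test of them cannot go below 0.333. The genotype fits were also run on simulated counts. There a log2 change of 1 was called for 14% of changed genes in epithelial and 36% in mesothelial cells. In the other cell groups simulated it was called for 53 to 71%. Genes were named when their mean over mice reached 10 CPM in some lineage, or when a test called them. Outside this rule, Wnt3a and Wnt7a were chosen after their values were seen, and Dkk1 and Wnt3 are named for a promoter match alone. The sets of fibroblasts by Cthrc1, Pi16, Hhip and Lcn2 and the dominant gate, which gives a cell to the lineage with at least 3 gate UMIs and 75% of its gate UMIs, were chosen after seeing the data, because Npnt, listed as an alveolar marker, was found in 81.3 to 91.9% of fibroblasts.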

Additional observations from a re-analysis of the deposited data

Results flagged for a closer look

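Sfrp1 was higher in both Tubb3-/- mice in fibroblasts (log2 ratio of means 1.08) and in mural cells (1.58) and lower in both in mesothelial cells (-0.44). Fibroblast minus mural was -0.48 ± 0.10 (adjusted p = 0.28, edgeR), and the differences of either from mesothelial cells were not tested.

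Fzd7 was higher in both Tubb3-/- mice in immune cells (log2 ratio 0.41) and lower in both in fibroblasts (-0.38) and in mesothelial cells (-0.41). Fzd8 was higher in mesothelial cells (0.73) and lower in mural cells (-0.07). Lrp5 was higher in epithelial cells (0.35) and lower in endothelial cells (-0.32), and Lrp6 was higher in immune cells (0.19) and lower in endothelial cells (-0.10) and mesothelial cells (-0.19). None of these differences between lineages was tested, and each rests on 2 mice against 2. Of the 19 Wnt genes at or above 10 CPM in a pair of lineages other than fibroblast and mural, these 5 stood apart in opposite directions in some pair, as did 27.4% of all 9837 such genes. The 6 fibroblast markers summed to 183 and 282 against 411 and 303 CPM in immune cells. They summed to 179 and 229 against 250 and 391 CPM in epithelial cells, and to 507 and 430 against 551 and 588 CPM in endothelial cells. The 8 mural markers were higher in both Tubb3-/- mice in immune and epithelial cells and lower in both in endothelial cells. The part of these markers was not tested.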

How the results depend on the processing

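Of 858 refitted fold changes for 64 results, 755 kept their direction and side of the threshold, 86 newly passed it, 15 no longer did and 2 reversed. Both reversals were of Sfrp4 under the dominant gate, at 0.11 in mural and 0.13 in Myh11 mural cells. Counts of called Wnt genes by genotype moved most. Beside each, the called among all genes tested is given. With DESeq2 they were 2 in fibroblasts (513 of 14783), 3 in mural cells (160 of 14478), 2 in Cthrc1-negative fibroblasts (317 of 14095) and 1 for the interaction (69 of 15394). With no filter on low counts they were 7 in mural (862 of 23185), 1 in epithelial (162 of 19855), 3 in mesothelial (348 of 18334), 1 in immune (258 of 22865) and 8 in Myh11 mural cells (1130 of 22912), 2 in Cthrc1-negative fibroblasts (114 of 23102) and 1 for the interaction (240 of 25007). A gate of 2 UMIs gave 1 in mesothelial cells (34 of 9001). For Myh11 mural cells the count was 0 in whole-cell libraries alone (2 of 9060), 3 under the dominant gate (215 of 15257) or DESeq2 (253 of 14182) and 1 without the top 5% of cells by UMIs (36 of 14167). Leaving out each mouse gave 0 to 7 in fibroblasts (0 to 1077 of all genes), 2 to 6 in mural (19 to 502), 0 to 1 in mesothelial (43 to 344), 0 to 1 in immune (0 to 492) and 3 to 5 in Myh11 mural cells (191 to 344), 0 to 9 in Cthrc1-negative fibroblasts (0 to 1150) and 0 to 3 for the interaction (5 to 890). Each such fit of genotype leaves an arm of 1 mouse, assumed to vary like the other genotype. Between fibroblasts and mural cells, with 3 mice in each, it gave 21 to 25 (7264 to 8177). With a mouse left out, no Wnt gene was called in endothelial cells, epithelial cells and pericytes. Other genes were called there in some of these fits. The cause of these moves was not tested.

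The replicate block gave 6 calls in fibroblasts (Dkk2, Fzd1, Sfrp1, Wnt10a, Wnt4 and Wnt6, with 1565 of all 14783 genes called), 5 in mural cells (533 of 14478), 2 in mesothelial cells (292 of 9540), 7 in Myh11 mural cells (664 of 14182) and 2 in Cthrc1-negative fibroblasts (652 of 14095). Samples with the same number deviated together by a correlation of 0.29 in fibroblasts, 0.23 in mural, 0.18 in immune, 0.12 in mesothelial, 0.11 in endothelial and 0.07 in epithelial cells, and they share a sex. The labels do not say that the numbers pair the mice.

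Among the 6 lineages, depth limits the epithelial and mesothelial ones most (321 and 324 cells). Small sets are limited further, at 11.1 CPM in the 42 pericytes, 10.5 CPM in 28 endothelial cells with Prox1 and 5.77 CPM in 32 epithelial cells with Foxj1.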

Other observations

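Within endothelium, Rspo3 also differed by cell set: the 28 cells with Prox1, the lymphatic factor, had 0, 153, 187 and 35.1 CPM over the 4 mice, from 32 UMIs in all. These cells were 3 to 10 in each mouse, so a mouse without a UMI is not shown to lack the transcript.

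Dkk3 and Axin2 followed Wnt4 and Wnt5b in mural cells. Dkk3 stood at 107, 224, 138 and 169 CPM in the 503 Higd1b mural cells and at 79.0, 87.9, 109 and 124 CPM in the Myh11 mural cells. Axin2 stood at 22.5, 50.5, 21.4 and 28.9 CPM against 9.27, 14.0, 11.8 and 12.9 CPM. Both genes were higher in the Higd1b set in each of the 4 mice. Sfrp2 had the opposite order, at 21.4, 19.5, 15.9 and 8.74 CPM in the Higd1b set and 114, 67.4, 90.2 and 133 CPM in the Myh11 set.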
